A study of Mus musculus with 26 samples.

Results

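Transcripts that mark Müller glia, the radial glial cells of the retina, were followed through 26 RNA libraries made from sorted pools of mouse retinal cells. The set was given by 37 gene names, and 36 of them have a row among the 14580 genes measured, the exception being the metallothionein gene Mt3. The names were picked from these same libraries: levels in adult ipRGC and cRGC pools, their rise together in adult cRGC pools, and low levels in ipRGC pools or in pups chose them. Values of those contrasts are therefore a description, with no p-value printed, and counts past a call rule stand there only beside the share of all genes. The difference of pool types in pups and the contrasts between reporter lines were tested. Levels in pups and in adults were in view when the names were picked, so these tests are not independent of the choice. A gene is listed in a set of libraries only if it passed the low-count filter that the submitters ran on that set. By that filter 36 of the names were listed in adult Opn4-Cre/GFP mice, 33 in adult Opn4-GFP mice, 24 in pups, and 22 in all 3 sets.

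Retinas were dissociated, enriched for retinal ganglion cells (RGCs) by magnetic selection for the surface protein Thy-1, and sorted by green fluorescence. GFP-positive pools are termed ipRGC (intrinsically photosensitive RGCs, which express melanopsin), and GFP-negative pools are termed cRGC (conventional RGCs). Adult Opn4-Cre/GFP mice (27 to 33 days old, labelled as of mixed background, genotype Opn4-Cre+/-;Z/EG+/-) gave 4 ipRGC and 4 cRGC pools, adult Opn4-GFP mice of the same age (labelled BL6, Opn4-GFP+/-) gave 6 and 6, and P5 Opn4-GFP pups (4 to 6 days old, the same line and label) gave 3 and 3. The text of the study instead describes both adult lines as of mixed background. All animals carried a reporter, so no pool came from a reporter-free mouse. In Opn4-Cre/GFP a Cre driven from the melanopsin locus switches on GFP for good in any cell that has expressed it, and in Opn4-GFP a bacterial artificial chromosome drives GFP directly and labels a narrower range of ipRGC types. Cells without GFP include ipRGCs that the reporter missed.

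Müller glia span the retina from its inner surface to the photoreceptors. They take up glutamate and turn it into glutamine, carry water and bicarbonate, supply lipids and hold the tissue together through intermediate filaments. They are born late, in the first postnatal days of the mouse, and mature over the weeks that follow. Many of the genes below are not used by Müller glia alone: Apoe, Glul and Gfap are also expressed by astrocytes, Sparc, Timp3 and Cav1 by vessel cells, and Clu, Dkk3 and Cst3 by some neurons.

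Listed reads per library ran from 9482809 to 43877750 in ipRGC and 6899510 to 44871619 in cRGC pools of Opn4-Cre/GFP, from 4134285 to 34882834 and 3927386 to 35090060 in adult Opn4-GFP, and from 10818218 to 12895222 and 5467809 to 8961523 at P5. The cell types named on the labels were checked against marker lists. Opn4 itself, the melanopsin gene, was at 820 to 3256 CPM in Opn4-Cre/GFP ipRGC pools, against 1.87 to 40.4 CPM in cRGC pools, at 2915 to 9823 against 69.1 to 487 CPM in adult Opn4-GFP, and at 1986 to 3360 against 41.2 to 55.7 CPM at P5. CPM are read counts per unit of TMM-scaled library size, as deposited for each set. Summed RGC markers (11 of 12 listed) ran from 3502 to 7603 CPM in adult Opn4-GFP ipRGC pools and from 440 to 2356 CPM in the cRGC pools, and from 4043 to 6574 against 807 to 2590 CPM in Opn4-Cre/GFP. At P5 the sums overlapped, at 5424 to 8490 CPM in ipRGC and 7200 to 8891 CPM in cRGC pools (12 of 12 listed). Adult pools labelled cRGC thus held less RGC marker RNA than the ipRGC pools in every case, beside the Müller glia RNA described below. In bulk pools, fewer cells of a type and less RNA per cell cannot be told apart. The study describes the pools of a group as biological replicates, each from several animals, and same-numbered ipRGC and cRGC pools as split from one purified RGC preparation.

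Müller glia transcripts were far more abundant in adult cRGC pools than in ipRGC pools of the same line. Their summed level was 1625 to 2606 CPM in Opn4-Cre/GFP ipRGC pools, against 15616 to 65439 CPM in cRGC pools. In adult Opn4-GFP it was 1509 to 2085 CPM in ipRGC pools, against 20190 to 37435 CPM in cRGC pools. A large part of the ipRGC sums came from Dkk3 and Ndnf. Their means were 694 and 347 CPM in Opn4-Cre/GFP ipRGC pools, and 736 and 244 CPM in adult Opn4-GFP ipRGC pools. Which cells the RNA in these sums came from was not tested. Past the call rule used throughout (adjusted p under 0.05 and a log2 difference over 1 in size), 33 of 36 members were called lower in ipRGC than in cRGC pools of Opn4-Cre/GFP (3.47% of all genes were, and 5.44% were called in either direction). The count was 27 of 33 in adult Opn4-GFP (3.39% of all genes, and 5.15% in either direction). No member was called higher in ipRGC pools of either line, against 1.97% and 1.76% of all genes. Since adult levels chose the members, nothing is read from these counts. The median log2 difference of the members was -4.49 in Opn4-Cre/GFP and -5.00 in adult Opn4-GFP, beside 0.03 and 0.06 for all genes. Every ipRGC pool lay below every cRGC pool for 33 of 36 members in Opn4-Cre/GFP, where 6.36% of all genes did so, and for 26 of 33 in adult Opn4-GFP, where 2.46% did. No member lay wholly above in ipRGC pools, as 5.49% and 1.4% of all genes did. With the pool number as a block, which pairs the pools of a preparation, 31 members were called in Opn4-Cre/GFP (not Htra1 or Tsc22d4) and 27 in adult Opn4-GFP. With edgeR's quasi-likelihood test, Hes1, Id3, Mt1, Mt2, Htra1 and Tsc22d4 were not called in Opn4-Cre/GFP, and Cd9, Cav1 and Tsc22d4 were not in adult Opn4-GFP. Without the libraries of a single sequencing run, Tsc22d4 was not called in either line, nor were Cd9, Id2, S100a16 and Mt2 in adult Opn4-GFP. In Opn4-Cre/GFP, 4 members hung on single pools: Id1 lost the call without ipRGC pool 1 or 3, Mt1 without either of those or cRGC pool 1, Htra1 without ipRGC pool 1, 2 or 3 or cRGC pool 1 or 3, and Tsc22d4 without ipRGC pool 1 or 4 or cRGC pool 1.

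**Figure D1:**
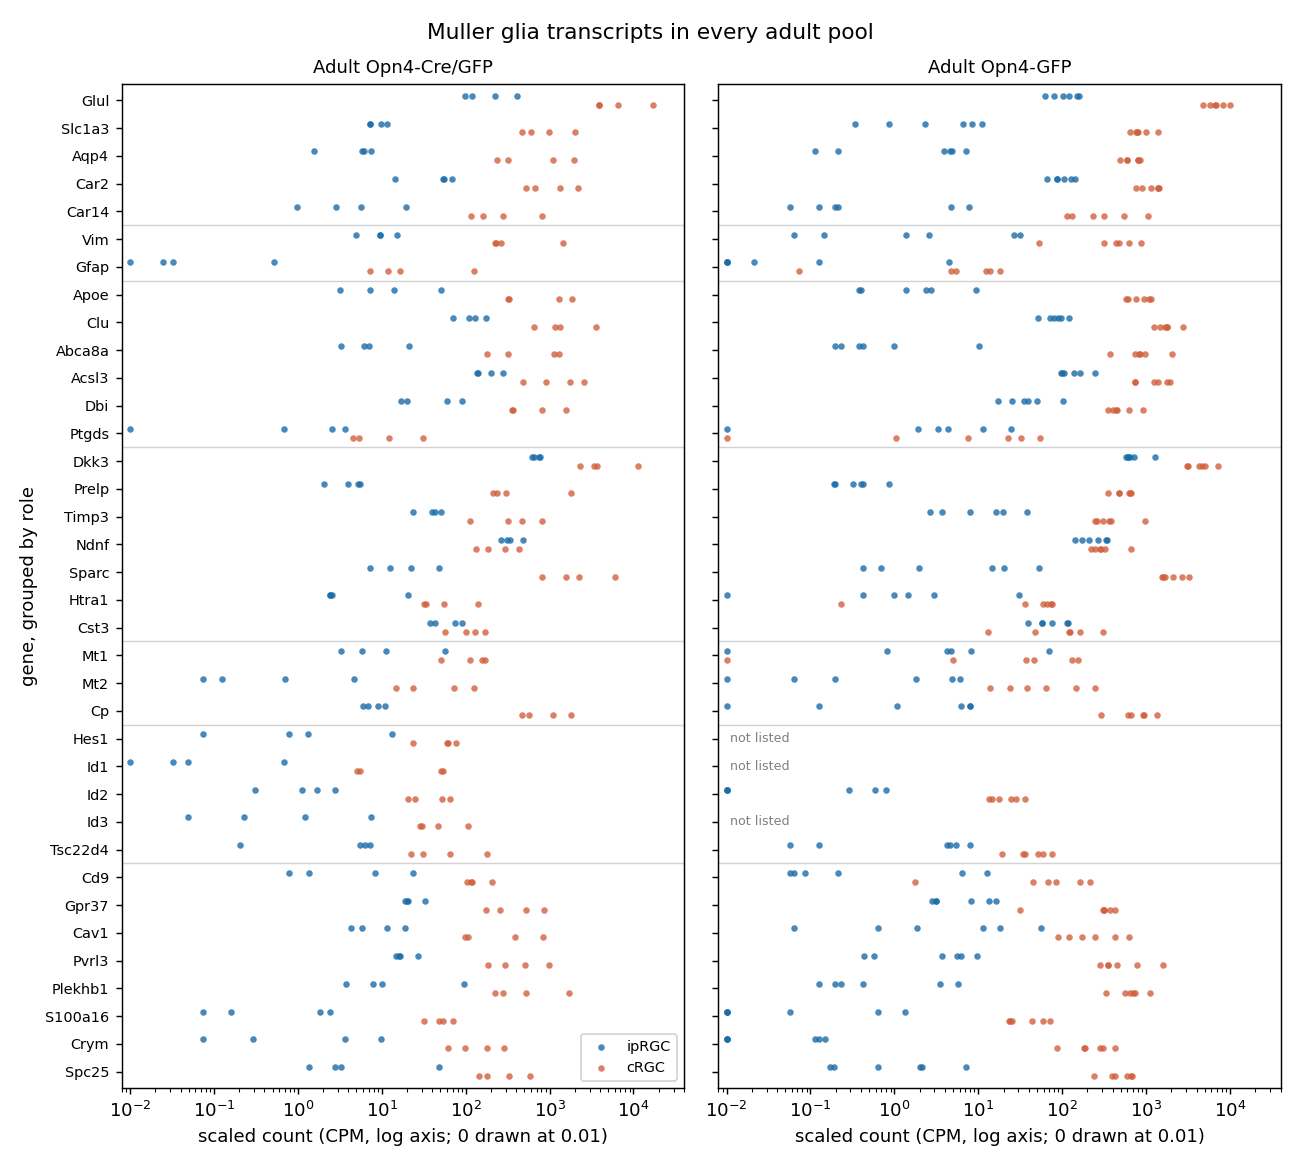
Scaled counts (CPM, log axis, 0 drawn at 0.01) of the 36 members in every adult pool, one point a pool, in Opn4-Cre/GFP (left panel, 4 pools of each kind) and Opn4-GFP (right panel, 6 of each), with ipRGC above cRGC in each row and genes grouped by role. In most rows the blue ipRGC points stand wholly left of the cRGC points, and Ndnf and Cst3 overlap in both panels.

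Genes of glutamate, water and pH handling include the most abundant member. Glul encodes glutamine synthetase, which turns glutamate into glutamine. Its 4 Opn4-Cre/GFP ipRGC pools held 97.5, 224, 120 and 412 CPM, against 17159, 3863, 6582 and 3873 CPM in the 4 cRGC pools. In adult Opn4-GFP, Glul was at 62.5, 111 and 160 CPM (lowest, median and highest of 6) in ipRGC pools, against 4713, 6697 and 10069 CPM in cRGC pools. The pool types were far apart in both lines, and the ipRGC mean was 2.71% and 1.60% of the cRGC mean. Per kilobase of exon, Glul stood first of all members in cRGC pools of both lines, at 2364 and 2110 CPM per kb. A predicted gene, 5830403L16Rik, overlaps exons of Glul, so the 2 cannot be fully separated in counts whose strandedness is not given in the sources used here.

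Slc1a3 encodes the glutamate transporter GLAST. It was at 7.22, 11.5, 7.27 and 9.72 CPM in Opn4-Cre/GFP ipRGC pools, against 2023, 471, 979 and 605 CPM in cRGC pools. The adult Opn4-GFP values were 0.344, 4.43 and 11.1 CPM in ipRGC pools (lowest, median, highest), against 641, 789 and 1402 CPM in cRGC pools. Log2 differences, on the log2(CPM + 1) scale that understates changes of low genes, were -6.47 (SE 0.50) and -7.63 (SE 0.64).

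Aqp4 encodes the water channel of Müller end-feet. Opn4-Cre/GFP ipRGC pools had 1.56, 7.36, 5.78 and 6.14 CPM, against 1970, 320, 1103 and 234 CPM in cRGC pools. In adult Opn4-GFP it lay between 0.115 and 7.15 CPM in ipRGC pools (median 4.27), against 493 to 835 CPM in cRGC pools (median 699). Across the 6 adult Opn4-GFP cRGC pools the highest Aqp4 level was 1.70 times the lowest, the narrowest span of any member, followed by Car2 (1.86 times), Prelp (1.89 times) and Apoe (1.95 times). The carbonic anhydrase genes Car2 and Car14 complete the group. For all 5 genes every ipRGC pool lay below every cRGC pool in both lines. Of all genes, 6.36% did so in Opn4-Cre/GFP and 2.46% in adult Opn4-GFP. Adult levels chose the members, so nothing is read from this count or from those of the groups below. The median log2 differences of the 5 genes were -5.50 in Opn4-Cre/GFP and -7.13 in adult Opn4-GFP. Car2 kept a level of 14.3 to 68.8 CPM in Opn4-Cre/GFP ipRGC pools and of 65.5 to 142 CPM in adult Opn4-GFP ipRGC pools, whereas Car14 was at 0.976 to 19.4 and 0.0573 to 7.70 CPM.

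The intermediate filament genes are the classic markers of Müller glia (Vim, vimentin) and of gliosis and astrocytes (Gfap). Vim was at 15.1, 9.64, 9.56 and 4.91 CPM in Opn4-Cre/GFP ipRGC pools, against 1433, 227, 262 and 225 CPM in cRGC pools. In adult Opn4-GFP it lay at 0.0628, 1.97 and 31.6 CPM (lowest, median, highest) in ipRGC pools, against 52.2, 456 and 873 CPM in cRGC pools. Gfap was scarce in comparison: 0.0244, 0.521, 0.0323 and 0 CPM in Opn4-Cre/GFP ipRGC pools, against 126, 11.9, 7.27 and 16.6 CPM in cRGC pools. Adult Opn4-GFP Gfap ran from 0 to 4.49 CPM in ipRGC pools (median 0.0107, 24 reads in all 6) and from 0.0729 to 18.05 CPM in cRGC pools (median 8.97). The groups overlapped there, through ipRGC pool 5 at 4.49 CPM and cRGC pool 2 at 0.0729 CPM, and the log2 difference was -2.83 and -2.98 without each of those pools, against -2.42 with all pools. Per kilobase, Gfap was the lowest member in adult Opn4-GFP cRGC pools, at 2.16 CPM per kb. Of 5 astrocyte genes, Pax2, Aldh1l1 and Gja1 were not listed in either adult set. S100b was listed in Opn4-Cre/GFP only, where it was not called between the pool types. Slc1a2, also expressed by other retinal cells, averaged 610 CPM in adult Opn4-GFP cRGC pools (204 to 925 CPM), against 0.502 to 289 CPM in ipRGC pools. In Opn4-Cre/GFP, Slc1a2 and S100b summed to 37.8 to 151 CPM in ipRGC pools, against 148 to 805 CPM in cRGC pools. The median log2 difference of these 2 genes was -0.54.

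Of the 6 lipid-handling genes, all 6 lay wholly below in ipRGC pools of Opn4-Cre/GFP, beside 6.36% of all genes. In adult Opn4-GFP 5 did, all but Ptgds, beside 2.46% of all genes. Apoe, the lipid carrier apolipoprotein E, was at 7.34, 14.2, 3.20 and 50.9 CPM in Opn4-Cre/GFP ipRGC pools, against 1829, 316, 329 and 1285 CPM in cRGC pools. In adult Opn4-GFP ipRGC pools it lay at 0.377, 1.86 and 9.43 CPM, against 582, 852 and 1136 CPM in cRGC pools. Abca8a, a lipid transporter of the ABC family, had the largest adult Opn4-GFP difference of all members (-8.74, SE 0.71), with 0.196, 0.402 and 10.2 CPM in ipRGC pools and 369, 843 and 2056 CPM in cRGC pools. Its Opn4-Cre/GFP ipRGC pools had 3.27, 7.11, 6.07 and 20.98 CPM, against 1306, 322, 1135 and 180 CPM in cRGC pools.

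The lipid genes Clu, Acsl3 and Dbi did not go to such low levels in adult Opn4-GFP ipRGC pools, whereas Ptgds was low in ipRGC pools of both lines. Clu (clusterin, an extracellular chaperone) stayed at 51.7 to 122 CPM and Acsl3 (a fatty acid activating enzyme) at 96.3 to 247 CPM in adult Opn4-GFP ipRGC pools, against 1240 to 2719 and 731 to 1932 CPM in cRGC pools. Dbi, the acyl-CoA binding protein, was at 17.4 to 102 CPM there, against 347 to 917 CPM. Ptgds, which makes prostaglandin D2, was at 0.683, 3.63, 2.58 and 0 CPM in Opn4-Cre/GFP ipRGC pools, against 30.9, 4.56, 12.3 and 5.33 CPM in cRGC pools, and at 0, 3.87 and 24.4 CPM in adult Opn4-GFP ipRGC pools, against 0, 15.1 and 54.9 CPM in cRGC pools. The adult Opn4-GFP groups overlapped over nearly their whole range, and with the 4 libraries of a single sequencing run left out the difference there was 0.73 in place of -0.86.

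In Opn4-Cre/GFP, 5 of 7 secreted and matrix genes lay wholly below in ipRGC pools (all but Ndnf and Cst3), beside 6.36% of all genes. In adult Opn4-GFP 4 of 7 did (all but Ndnf, Cst3 and Htra1), beside 2.46% of all genes. Sparc encodes a matrix protein that binds collagen. Its Opn4-Cre/GFP ipRGC pools had 12.6, 47.7, 22.3 and 7.16 CPM, against 5977, 1562, 2220 and 824 CPM in cRGC pools, and its adult Opn4-GFP ipRGC pools had 0.428, 8.21 and 52.6 CPM, against 1552, 1908 and 3278 CPM. Prelp, a leucine-rich proteoglycan, was near absence in ipRGCs: 5.27, 2.04, 5.46 and 3.99 CPM in Opn4-Cre/GFP, against 1799, 234, 304 and 212 CPM in cRGC pools. In adult Opn4-GFP it was at 0.188, 0.361 and 0.870 CPM in ipRGC pools (46 reads in 6 libraries), against 352, 558 and 665 CPM in cRGC pools (49201 reads). The exons of Prelp overlap those of the predicted gene Gm15851.

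Cst3 and Ndnf stood out by keeping their level in ipRGCs. Cst3 encodes cystatin C, a secreted protease inhibitor. Opn4-Cre/GFP ipRGC pools had 91.0, 74.2, 42.6 and 38.1 CPM, against 128, 168, 56.3 and 100.2 CPM in cRGC pools, and adult Opn4-GFP ipRGC pools had 39.3, 66.8 and 118 CPM, against 13.2, 122 and 310 CPM in cRGC pools. The difference of -0.31 (SE 0.66) in adult Opn4-GFP was 0.05 without cRGC pool 2. Ndnf encodes a secreted factor that supports neuron survival and migration. It was at 333, 265, 478 and 309 CPM in Opn4-Cre/GFP ipRGC pools, against 434, 133, 294 and 184 CPM in cRGC pools, and at 141, 238 and 344 CPM in adult Opn4-GFP ipRGC pools, against 219, 289 and 659 CPM. The groups overlapped in both lines, and the sign of the log2 difference was opposite, 0.52 (SE 0.41) in Opn4-Cre/GFP and -0.44 (SE 0.41) in adult Opn4-GFP.

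Dkk3, a secreted protein of the Dickkopf family, combined a high level in cRGC pools with a high one in ipRGCs. It was second only to Glul per kilobase in cRGC pools, at 1546 CPM per kb in Opn4-Cre/GFP and 1357 CPM per kb in adult Opn4-GFP. In ipRGC pools it was still at 610 to 769 CPM and 570 to 1268 CPM. The mean in ipRGC pools came to 10% or more of that in cRGC pools for 7 members in each line, the same 7 in both: Dkk3, Acsl3, Ndnf, Ptgds, Mt1, Cst3 and Htra1. At the other end, it was under 1% for 7 members in Opn4-Cre/GFP and 13 in adult Opn4-GFP, Slc1a3, Aqp4, Prelp, Sparc and Cp in both. The share of all genes past either limit was not computed, and adult levels chose the members. Nothing is read from these counts.

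Plekhb1, Crym and Spc25 belong to a mixed group of 8 membrane and other proteins. All 8 lay wholly below in ipRGC pools of Opn4-Cre/GFP, beside 6.36% of all genes. In adult Opn4-GFP 7 did, all but Cd9, beside 2.46% of all genes. Plekhb1 encodes a membrane-bound protein with a pleckstrin homology domain. In Opn4-Cre/GFP it was at 3.71, 7.80, 10.1 and 94.2 CPM in ipRGC pools, against 1716, 275, 520 and 222 CPM in cRGC pools, and in adult Opn4-GFP at 0.126, 0.329 and 5.72 CPM, against 328, 679 and 1129 CPM. Crym, a thyroid hormone binding crystallin, had the lowest ipRGC share of any member in adult Opn4-GFP, 0.0265% of the cRGC mean, and 3 of 6 ipRGC pools were at 0. The remaining genes of the group, the tetraspanin gene Cd9, the receptor gene Gpr37, the caveolin gene Cav1, the nectin gene Pvrl3 and the calcium binding S100a16, had differences of -3.998 to -4.75 in Opn4-Cre/GFP and -4.56 to -6.95 in adult Opn4-GFP.

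Spc25 encodes a subunit of the NDC80 complex, which ties chromosomes to the spindle in dividing cells. It was at 1.37, 3.25, 2.78 and 48.0 CPM in Opn4-Cre/GFP ipRGC pools, against 588, 145, 333 and 179 CPM in cRGC pools, and at 0.172 to 7.04 CPM in adult Opn4-GFP ipRGC pools, against 242 to 671 CPM. Its partner genes Ndc80, Nuf2 and Spc24 and 7 further cell cycle genes, among them Mki67 and Top2a, were not listed in either adult set. Spc25 RNA was thus measured in adult cRGC pools without the other parts of its complex passing the filter.

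Transcription regulators were listed more fully in Opn4-Cre/GFP than in adult Opn4-GFP. All 5 lay wholly below in ipRGC pools of Opn4-Cre/GFP, beside 6.36% of all genes. In adult Opn4-GFP, Hes1, Id1 and Id3 were not listed and both others lay wholly below, beside 2.46% of all genes. Hes1 is a Notch target, the Id genes answer BMP signals, and Tsc22d4 is a leucine zipper gene. Id1 was at 0.0488, 0.688, 0.0323 and 0 CPM in Opn4-Cre/GFP ipRGC pools, against 51.5, 5.55, 5.07 and 53.6 CPM in cRGC pools. Id3 was at 0.0488, 1.23, 0.226 and 7.47 CPM, against 107, 47.0, 28.8 and 30.4 CPM. Id2 was at 1.71, 1.13, 2.78 and 0.307 CPM, against 51.9, 24.9, 65.4 and 20.7 CPM. In adult Opn4-GFP, Id2 was at 0, 0.145 and 0.790 CPM in ipRGC pools, against 13.3, 21.2 and 35.8 CPM in cRGC pools. No Id gene exceeded 107 CPM in any adult pool, and they ranked between 28th and 32nd of 36 per kilobase in Opn4-Cre/GFP cRGC pools.

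Metallothioneins bind zinc and copper and are switched on through metal response elements, short motifs bound by the factor MTF1. The genes Mt1 and Mt2 lie next to each other on chromosome 8, with starts 6471 bp apart, and their RNAs are similar enough that reads could be assigned to the wrong copy. Their promoters are shown because both genes are known for this control and their levels differed from pool to pool. Each window covers 250 bases before to 50 bases after the start of the gene on the plus strand, from RefSeq's GRCm38.p6 table, found by exact match at chr8:96702739-96703038 (Mt1) and chr8:96696268-96696567 (Mt2) of NCBIM37 (mm9). Capitals mark the metal response element core, TGCACNC or TGCGCNC read on either strand, including copies that may overlap other motifs.
Mt1: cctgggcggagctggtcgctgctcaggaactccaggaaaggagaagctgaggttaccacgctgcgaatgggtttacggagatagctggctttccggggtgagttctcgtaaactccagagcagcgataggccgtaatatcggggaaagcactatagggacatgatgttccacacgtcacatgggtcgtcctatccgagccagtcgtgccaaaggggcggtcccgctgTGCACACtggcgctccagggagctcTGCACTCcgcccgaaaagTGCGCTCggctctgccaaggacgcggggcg
Mt2: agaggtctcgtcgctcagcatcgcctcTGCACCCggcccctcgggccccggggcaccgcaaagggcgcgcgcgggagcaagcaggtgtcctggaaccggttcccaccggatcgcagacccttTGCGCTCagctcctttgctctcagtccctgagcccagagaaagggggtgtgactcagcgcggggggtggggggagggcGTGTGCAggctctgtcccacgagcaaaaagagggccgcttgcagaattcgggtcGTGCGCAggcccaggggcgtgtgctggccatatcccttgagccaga

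The Mt1 window holds 3 core copies, all on the gene's strand, and the Mt2 window holds 4, with 2 on each strand. Of 32851 promoter windows of this length, 25.7% hold at least 1 copy, 1.97% at least 3 and 0.517% at least 4. Among 28 member names with a window, 11 hold a copy and only Mt1 and Mt2 hold 3 or more. A match says only that these letters are present.

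Mt1 was at 3.24, 11.2, 5.75 and 56.3 CPM in Opn4-Cre/GFP ipRGC pools, against 168, 113, 50.7 and 157 CPM in cRGC pools. Mt2 was at 0.0732, 0.125, 0.711 and 4.71 CPM in the same ipRGC pools, against 125, 23.5, 14.7 and 73.2 CPM. Mt1 exceeded Mt2 in all 8 Opn4-Cre/GFP pools, in CPM not divided by length. In adult Opn4-GFP the order was not fixed. Mt1 was at 0, 4.48 and 68.9 CPM in ipRGC pools (lowest, median, highest), against 0, 41.2 and 153 CPM in cRGC pools, and Mt2 was at 0, 0.994 and 6.04 CPM, against 13.7, 51.2 and 244 CPM. In cRGC pool 4, Mt1 was at 0 and Mt2 at 148 CPM; in ipRGC pool 6, Mt1 was at 68.9 CPM and Mt2 at 0.196 CPM. Mt2 lay wholly below in ipRGC pools of both lines, and Mt1 overlapped between the pool types in both. The Mt1 difference itself was not shown to vary with the line (interaction log2 -1.18, SE 1.73, limma adjusted p = 0.999). The third metal gene, the copper-binding Cp (ceruloplasmin), was among the most uneven members, with 0.833% and 0.492% of the cRGC mean in ipRGCs.

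**Figure D2:**
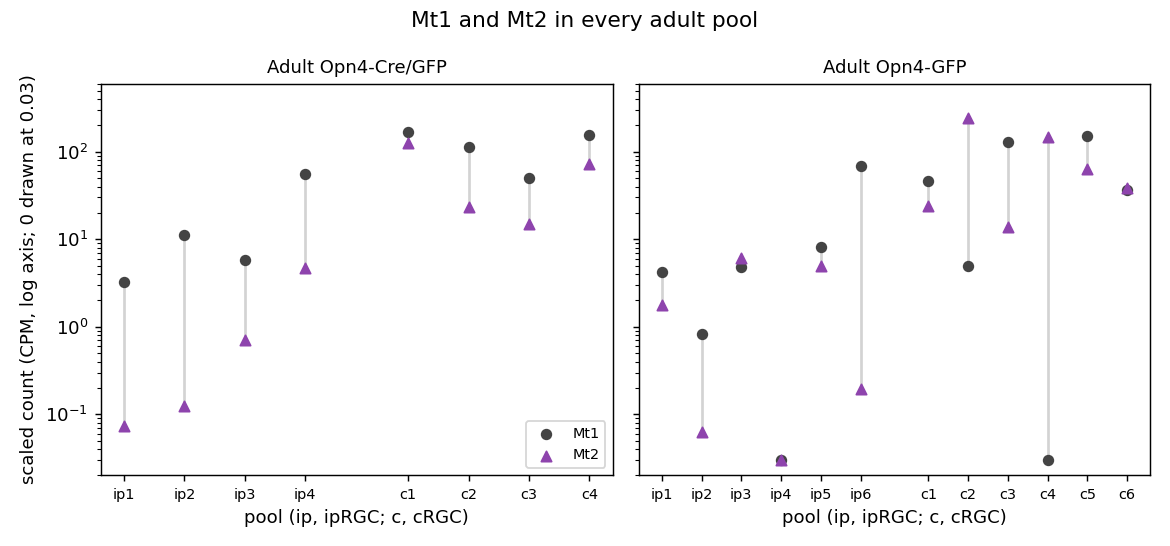
Scaled counts (CPM, log axis, 0 drawn at 0.03) of Mt1 (circles) and Mt2 (triangles) in every adult pool of Opn4-Cre/GFP (left) and Opn4-GFP (right), ipRGC pools before cRGC pools, with a grey line joining the 2 genes of a pool. Mt1 lies above Mt2 in all 8 Opn4-Cre/GFP pools, while in Opn4-GFP cRGC pools 2 and 4 Mt2 lies far above.

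Most Müller glia transcripts were highest in the same cRGC pool in Opn4-Cre/GFP, while in adult Opn4-GFP the highest pool differed between members. A joint rise across adult cRGC pools was among what chose the names, so these values are a description and nothing is read from them. In Opn4-Cre/GFP cRGC pool 1 was the highest of 4 for 32 of 36 members, while it was the highest for 28.9% of all genes. The median member stood 1.32 log2 units above its group median in pool 1 and 0.62 below it in pool 2. In adult Opn4-GFP, cRGC pool 4 was the highest for 14 of 33 members and pool 1 for 9. The same pools were highest for 22.3% and 15.8% of all genes. Pool 4 was also the lowest for 4 members. Dividing each member by Glul in the same pool lowered the median SD of its log2 level across the 4 pools to 0.60, against 1.03 undivided, and made it smaller for 28 of 33 members of at least 20 CPM. For the 6254 other genes of at least 20 CPM, the same division raised the median SD to 1.26, against 0.85, and lowered it in 22.9% of genes. In adult Opn4-GFP cRGC pools the division lowered the SD for 17 of 30 such members (median 0.58, against 0.69 undivided), and for 39.4% of other genes. In ipRGC pools it did so for 2 of 9 such members in Opn4-Cre/GFP, beside 15.7% of other genes, and for 0 of 7 in adult Opn4-GFP, beside 27.8%. All members of a pool share its library and its scaling. Slc1a3 and Apoe followed Glul closely in adult Opn4-GFP cRGC pools, where the SD of the log2 ratio to Glul was 0.22 for each. In Opn4-Cre/GFP cRGC pools this SD was 0.20 for Slc1a3. For Apoe it was 1.16 there, beside 1.31 undivided. Without Opn4-Cre/GFP cRGC pool 1, 30 of the 33 members remained called lower in that line, and Mt1, Htra1 and Tsc22d4 did not.

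**Figure D3:**
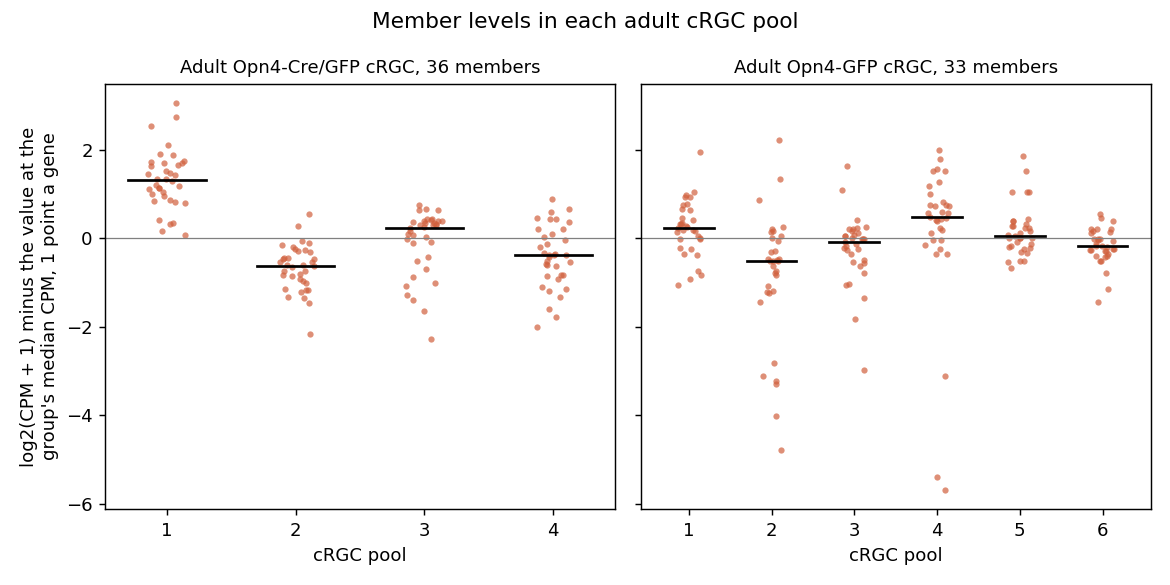
Level of each member in each adult cRGC pool as log2(CPM + 1) minus the value at the group's median CPM, one point a gene, with the median member as a bar, in Opn4-Cre/GFP (4 pools, 36 members) and Opn4-GFP (6 pools, 33 members). All 36 points of Opn4-Cre/GFP pool 1 lie above 0, and single genes fall far below it in Opn4-GFP pools 2 and 4.

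Most genes of a further Müller glia list, which holds no members, were also lower in adult ipRGC pools. Of its 16 genes, 14 of 16 listed in Opn4-Cre/GFP were called lower in ipRGCs (all but Rax and Hes5), beside 3.47% of all genes. In adult Opn4-GFP it was 13 of 14 (all but Egfr), beside 3.39%. This list too was chosen with earlier results of these data known, so nothing is read from these counts. The retinoid carrier gene Rlbp1 averaged 13.1 ± 17.4 CPM in Opn4-Cre/GFP ipRGC pools and 907 ± 492 CPM in cRGC pools (SD, n = 4 each). The potassium channel gene Kcnj10 averaged 12.5 ± 12.2 CPM in ipRGC pools and 776 ± 412 CPM in cRGC pools. Of the markers of other cells, rod and vessel sums in adult Opn4-GFP and vessel sums in Opn4-Cre/GFP did not overlap between the pool types. Summed rod genes ran from 2.32 to 77.6 CPM in adult Opn4-GFP ipRGC pools, against 141 to 1345 CPM in cRGC pools, with 5 of 10 listed and Nrl not listed. In Opn4-Cre/GFP the rod sums overlapped, at 18.4 to 299 CPM in ipRGC pools, against 211 to 965 CPM in cRGC pools (4 of 10 listed). Amacrine sums (9 of 10 listed) overlapped in both lines, at 713 to 1586 CPM in Opn4-Cre/GFP ipRGC pools, against 844 to 3208 CPM in cRGC pools, and at 1073 to 2016 against 1983 to 6278 CPM in adult Opn4-GFP. Bipolar sums overlapped too, at 143 to 342 CPM in Opn4-Cre/GFP ipRGC pools, against 316 to 567 CPM in cRGC pools (5 of 8 listed), and at 214 to 679 against 268 to 901 CPM in adult Opn4-GFP (7 of 8 listed), as did cone sums, at 13.3 to 214 against 1.78 to 162 CPM (4 of 6 listed) and at 0.251 to 21.1 against 0 to 50.8 CPM (1 of 6 listed). Summed vessel genes ran from 12.1 to 34.6 CPM in Opn4-Cre/GFP ipRGC pools, against 674 to 3370 CPM in cRGC pools (4 of 8 listed). In adult Opn4-GFP they ran from 0.642 to 46.5 CPM, against 693 to 1636 CPM, from Kdr, Flt1 and Rgs5 only. Pecam1, Cdh5, Cldn5, Pdgfrb and Tek were not listed there. No microglia gene of 7 was listed in either adult set. The part of these cells in the levels of Sparc, Timp3, Cav1 and other shared genes was not tested.

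At P5 most members were not called between the pool types, and the 7 that were called did not share a direction. Over the 24 members tested, the median log2 difference of ipRGC minus cRGC was -0.11, beside 0.00 for all genes. Of these, 5 were called higher in P5 ipRGCs (4.2% of all genes were called in either direction), where 1.93% of all genes were, and 2 were called lower, where 2.27% of all genes were (limma with Benjamini-Hochberg adjustment over 13677 genes). The higher ones were Ndnf, Cav1, Timp3, Pvrl3 and Vim, and the lower ones were Gfap and Sparc. At an unadjusted p under 0.05, 6 were higher and 5 lower, beside 6.44% and 6.89% of all genes. Since low levels in pups were in view when the names were picked, the members were not chosen blind to these pools. Adjusted p-values of single members at P5 are therefore given to describe these pools, not as an independent test.

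Ndnf had the widest gap of any member at P5. It was at 317, 287 and 254 CPM in ipRGC pools, against 4.43, 4.92 and 3.10 CPM in cRGC pools. The log2 difference was 5.81 (SE 0.27, limma adjusted p = 1.81e-09), and the groups were far apart in every pair of pools. Its level in P5 ipRGC pools resembled that of the adult pools of both kinds, and P5 cRGC pools were the only group in which it was scarce.

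Cav1, the caveolin gene, was at 18.9, 11.8 and 17.1 CPM in P5 ipRGC pools, against 1.06, 0.686 and 2.56 CPM in cRGC pools (log2 difference 2.84, SE 0.44, limma adjusted p = 0.000819). Timp3 inhibits matrix metalloproteinases, and its exons overlap those of the synapsin gene Syn3. It was at 73.3, 58.1 and 43.3 CPM in P5 ipRGC pools, against 7.44, 2.74 and 18.8 CPM in cRGC pools (2.76, SE 0.47, limma adjusted p = 0.00173). Both genes were higher in every ipRGC pool than in every cRGC pool, the reverse of their order in adults.

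Pvrl3, the cell adhesion gene nectin 3, was at 37.7, 36.6 and 34.4 CPM in P5 ipRGC pools, against 19.0, 10.5 and 13.5 CPM in cRGC pools (1.32, SE 0.31, limma adjusted p = 0.0193). Vim was at 70.9, 140 and 71.9 CPM, against 34.4, 29.4 and 55.7 CPM (1.20, SE 0.31, limma adjusted p = 0.0354). Neither pair of groups overlapped. These 2 calls were less firm than the others. Pvrl3 lost its call without ipRGC pool 1, 2 or 3 or cRGC pool 2 (limma adjusted p = 0.051 to 0.106), and Vim lost it without ipRGC pool 2, cRGC pool 1 or cRGC pool 2 (0.139 to 0.206), with no TMM scaling (0.0602) and with edgeR's quasi-likelihood test (0.0528).

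Gfap and Sparc were the members lower in P5 ipRGCs. Gfap was at 0.0729, 0.380 and 0 CPM in ipRGC pools, 5 reads in all, against 7.44, 4.00 and 36.1 CPM in cRGC pools (-3.35, SE 0.61, limma adjusted p = 0.00318). Sparc was at 6.42, 12.3 and 15.3 CPM, against 50.1, 126 and 132 CPM (-3.02, SE 0.38, limma adjusted p = 0.000115). All ipRGC pools lay below all cRGC pools for these 2 genes, as 8.47% of all genes did, and 6 members lay wholly above, as 8.85% did. With the pool number as a block 2 more genes were called lower: Slc1a3 (-1.57, limma adjusted p = 0.0359, and 0.185 without the block) and Id2 (-1.68, adjusted p = 0.0133, and 0.147 without). Slc1a3 was at 1.90, 0.855 and 3.88 CPM in ipRGC pools, against 5.85, 3.55 and 21.2 CPM in cRGC pools, and Id2 at 2.77, 1.23 and 8.80 CPM, against 9.21, 7.78 and 29.0 CPM.

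**Figure D4:**
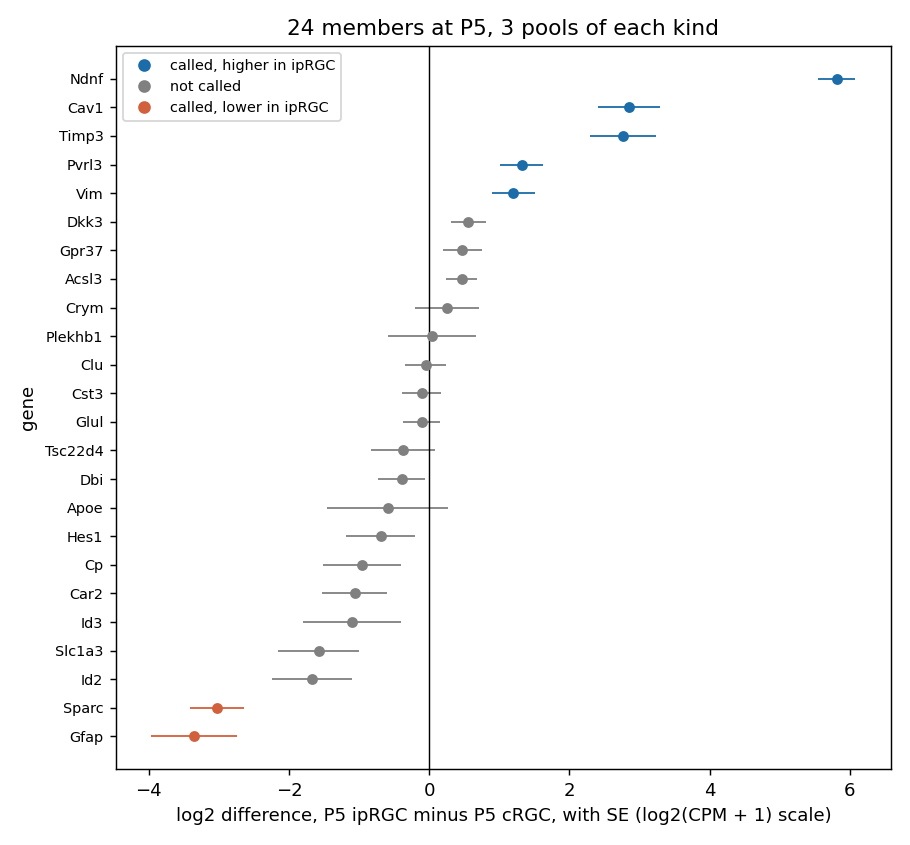
Log2 difference (P5 ipRGC minus P5 cRGC, on the log2(CPM + 1) scale) of the 24 members listed at P5, with the standard error as a bar and 3 pools of each kind. Ndnf, Cav1, Timp3, Pvrl3 and Vim lie to the right as called higher in ipRGC, Gfap and Sparc to the left as called lower, and 17 members in grey were not called.

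Other defining genes of mature Müller glia were not called at P5, or not listed. Glul was at 73.7, 70.1 and 131 CPM in ipRGC pools, against 99.4, 78.6 and 109 CPM in cRGC pools (-0.11, SE 0.26, limma adjusted p = 0.952). Apoe was at 1.09, 1.61 and 6.81 CPM, against 0.532, 1.83 and 32.8 CPM. Id3 was at 0.511, 0.190 and 1.26 CPM, against 2.13, 0 and 11.9 CPM. Aqp4, Abca8a, Prelp, Cd9, Id1, S100a16, Car14, Ptgds, Mt1, Mt2, Htra1 and Spc25 were not listed at P5. Of the separate list of Müller genes, 9 of 16 were listed and 1, the GABA transporter gene Slc6a11, was called (lower in ipRGCs); Rlbp1 was at 0.782 ± 0.712 CPM in ipRGC and 1.57 ± 1.55 CPM in cRGC pools (SD, n = 3 each).

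P5 cRGC pool 3 held the highest value of its group for 18 of 24 members, beside 35.2% of all genes. The same pool had 284 CPM of Rgs5, a pericyte gene, against at most 7.62 CPM in the other cRGC pools and 10.8 CPM in any ipRGC pool. Its summed vessel genes were 289 CPM, most of it Rgs5, against 7.09 and 18.1 CPM in the other cRGC pools and 11.7 to 13.3 CPM in ipRGC pools. Of 8 vessel genes 3 were listed at P5, while Cdh5, Cldn5, Flt1, Pdgfrb and Tek were not. Without cRGC pool 3, Ndnf, Cav1, Timp3, Pvrl3, Vim, Gfap and Sparc were each still called. Astrocyte genes Pax2, S100b and Slc1a2 were listed at P5 and 0 of 3 was called. Their sum was 91.4 to 102 CPM in ipRGC pools, against 70.6 to 80.1 CPM in cRGC pools.

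Across age, adult levels were compared with P5 in Opn4-GFP on a joint scale over 11236 genes, as a description. Pools of the 2 ages were separate sorts, and the median of all genes shifted by -0.24 in ipRGC and -0.34 in cRGC pools on this scale. In cRGC pools, 19 of the 22 members listed at both ages stood over 1 log2 unit higher in adults, and none over 1 lower, with a median of 5.31. The share of all genes past 1 log2 unit was not computed for either pool type, so nothing is read from such counts. Glul averaged 7163 ± 1752 CPM in adult cRGC pools (n = 6) and 91.3 ± 16.1 CPM in P5 cRGC pools (n = 3), a difference of 6.26. Apoe (7.36), Cp (7.34), Car2 (6.89), Crym (6.88) and Plekhb1 (6.79) had the largest differences. Gfap (-0.58), Cst3 (0.31) and Id2 (0.76) did not differ by more than 1.

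In ipRGC pools the members did not share a direction across age. The median was -0.15, with 3 members over 1 higher in adults and 8 over 1 lower. The higher ones were Car2 (4.48), Dkk3 (1.48) and Clu (1.12). Car2 averaged 108 ± 32.9 CPM in adult ipRGC pools and 3.83 ± 1.29 CPM in P5 ipRGC pools, and Dkk3 averaged 775 ± 271 CPM and 274 ± 78.3 CPM. The lower ones included Vim (-4.19), Pvrl3 (-3.02), Gpr37 (-2.39) and Timp3 (-2.22), 3 of which were called higher in P5 ipRGCs than in P5 cRGCs. Vim averaged 11.2 ± 16.05 CPM in adult ipRGC pools and 89.9 ± 37.2 CPM in P5 ipRGC pools. Glul, by contrast, was at 119 ± 42.0 CPM in adult ipRGC pools and 87.3 ± 31.9 CPM in P5 ipRGC pools (SD, n = 6 and 3). Acsl3 was likewise at 147 ± 54.8 CPM in adult and 126 ± 18.5 CPM in P5 ipRGC pools, and Cst3 at 82.3 ± 36.9 CPM in adult and 68.1 ± 7.46 CPM in P5 ipRGC pools. For these 3 genes, P5 cRGC pools were in the same range, at 91.3 ± 16.1, 90.8 ± 12.4 and 78.2 ± 37.5 CPM.

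**Figure D5:**
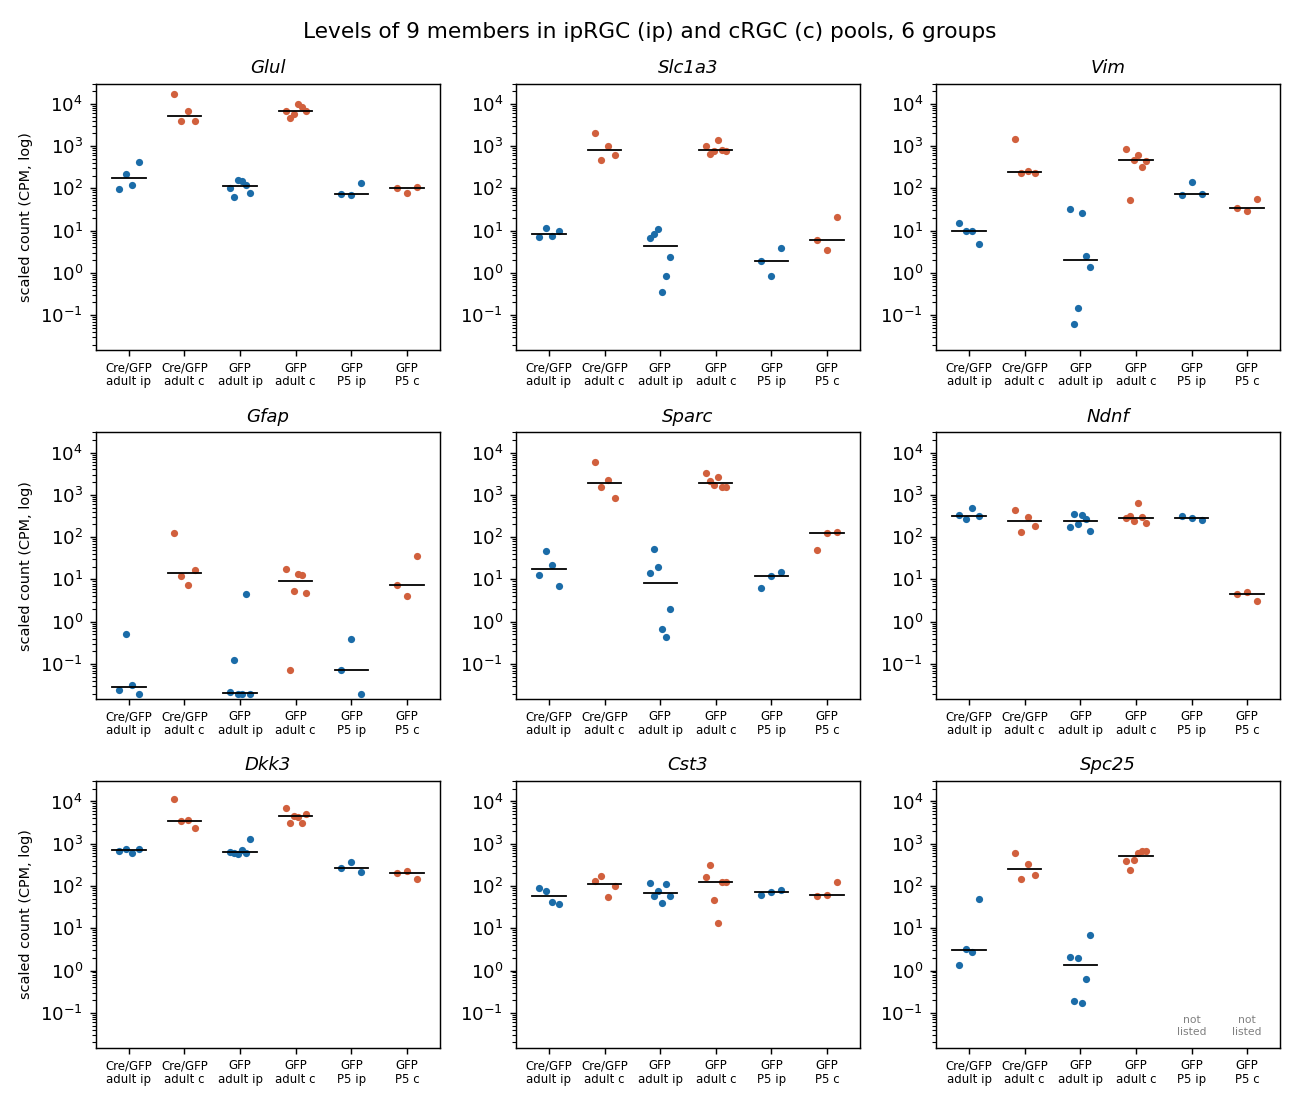
Scaled counts (CPM, log axis, 0 drawn at 0.02) of 9 members in the 6 groups, one point a pool with the group median as a bar, each set of libraries on its own scale. Glul, Slc1a3 and Sparc are highest in adult cRGC pools (red), Ndnf is low only in P5 cRGC pools, Cst3 overlaps between the pool types at both ages, and Spc25 was not listed at P5.

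The reporter lines were compared within each pool type over 11441 genes listed in both adult sets, on jointly scaled reads. The difference between lines was not among the stated grounds for choosing the members. Levels in these same adult pools were, so the tests are not independent of the choice. The difference between lines cannot be told apart from any difference in background, which the labels give as mixed and BL6. Nor can it be told apart from any difference in how the 2 sets were prepared. In cRGC pools, none of 33 members was called, where 0.0262% of all genes were, and the count was 0 also with edgeR's quasi-likelihood test and with DESeq2, which called 3 and 24 genes in all. At an unadjusted p under 0.05 it was 0 too, beside 3.71% of all genes higher and 1.31% lower in Opn4-Cre/GFP. Differences of Opn4-Cre/GFP minus Opn4-GFP ran from -0.95 (Spc25) to 2.08 (Mt1, SE 1.22), with a median of -0.16 beside 0.19 for all genes. Glul differed by -0.22 (SE 0.43), Slc1a3 by -0.14 (SE 0.63) and Aqp4 by -0.22 (SE 0.70). The lowest adjusted p over the 33 members was 0.963 (limma), and standard errors ran from 0.35 to 1.22, so the intervals of these differences are wide.

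In ipRGC pools, limma also called none of 33 members, and 0% of all genes; at an unadjusted p under 0.05, 7 were higher in Opn4-Cre/GFP and 1 lower, beside 1.70% and 0.551% of all genes. The quasi-likelihood test called 0, and DESeq2 called 3 higher (Prelp, Crym and Plekhb1), among 10 genes in all. Plekhb1 was at 3.31, 6.90, 8.74 and 96.1 CPM in Opn4-Cre/GFP ipRGC pools on the joint scale, against 0.133 to 6.02 CPM (median 0.346) in Opn4-GFP ipRGC pools, a log2 difference of 2.69 (SE 0.79). Prelp was at 4.70, 1.81, 4.72 and 4.07 CPM, against 0.199 to 0.914 CPM (median 0.379), with no overlap (1.73, SE 0.67; DESeq2 3.18, adjusted p = 0.00306). Pvrl3 did not overlap either, at 13.1, 14.5, 23.4 and 16.4 CPM, against 0.464 to 10.1 CPM. Apoe was at 6.55, 12.5, 2.76 and 51.9 CPM, against 0.398 to 9.90 CPM. Car2 went the other way, with 12.7, 60.9, 47.4 and 54.8 CPM, against 69.0 to 150 CPM (-1.43, SE 0.46), and the groups did not overlap. Over the 33 members, 26 differences were above 0 and the median was 0.80, beside a median of 0.11 for all genes. The share of all genes above 0 was not computed, so nothing is read from that count.

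The interaction term asked whether the ipRGC minus cRGC difference itself depended on the line. It called 0 of 33 members and 0% of all genes by limma, 0 by the quasi-likelihood test and 1 by DESeq2 (Crym, among 6 genes in all). At an unadjusted p under 0.05, 6 members were higher and 0 lower, beside 1.27% and 1.11% of all genes. The members with the largest terms were Plekhb1 (3.24, SE 1.11), Abca8a (2.75, SE 1.05) and Pvrl3 (2.49, SE 0.95), each with a smaller gap between pool types in Opn4-Cre/GFP.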

How the data were processed

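Per the labels and the methods of the study, RNA of sorted pools was amplified to cDNA and sequenced; the submitters' processing notes name TopHat2, SAMtools, HTSeq, edgeR and the mm9 build. The deposited signal values are read counts per gene, which the authors divided by library size after TMM scaling within each of 3 sets of libraries (CPM), keeping genes that passed a low-count filter. Of these values, 100% were whole multiples of 1 read (tolerance 0.01), so counts were recovered. A deposited table of read counts per sequencing run covered 24 of 26 libraries; 2 run entries belonging to no sample were not used. Columns with the authors' own fold changes, p-values and notes were not used.

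Within a set, limma-trend was fitted to log2(CPM + 1) over all listed genes, two-sided, with Benjamini-Hochberg adjustment; a gene was called at adjusted p under 0.05 and an absolute log2 difference over 1. Contrasts of lines used recovered counts scaled together by TMM and 1 fit over 20 adult libraries. Alternatives were other pseudocounts (0.5 and 5), a filter at a mean of 5 CPM, no TMM, DESeq2 size factors, edgeR's quasi-likelihood test, DESeq2, the pool number as a block, single-run libraries left out and each pool left out. A figure legend of the study states that same-numbered ipRGC and cRGC pools come from one preparation processed in parallel, so the numbers were taken to pair pools and the block is given beside results it changed. Deviations of same-numbered pools from their group means correlated at r = 0.135, 0.177 and 0.324 at P5, 0.0162 to 0.125 in adult Opn4-GFP and 0.0520 to 0.268 in Opn4-Cre/GFP. The fitting was also run on simulated counts, drawn with the same fixed setting of spread for every gene and without deviant pools. That run does not show how calls hold under the spread of the real pools. Lengths per kb are exon lengths of GENCODE on mm9. Members and lists were chosen with earlier results of these data known; values in single pools are given for the defining glial genes, the 4 members with the largest and the 4 with the smallest adult Opn4-GFP differences, members called in tested contrasts, and the Mt and Id families. Fold changes on the log2(CPM + 1) scale understate changes of low genes. Low CPM rest on few reads, and counting error alone is not the spread between pools. R 4.3.3, limma 3.58.1, edgeR 4.0.16, DESeq2 1.42.0 and Python 3.11.15 were used.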

Additional observations from a re-analysis of the deposited data

Results flagged for a closer look

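In 29 of 138 member and adult group combinations, the highest or lowest pool stood apart from the rest of its group. The gap was one that chance gives in about 1 in 20 groups of normally distributed values. CPM were not put on a log scale for this, so that rate need not hold here. In adult Opn4-Cre/GFP ipRGC, pool 4 was high for Plekhb1 (94.2 CPM), Hes1 (13.1), Id3 (7.47), Mt1 (56.3), Mt2 (4.71), Htra1 (20.4) and Spc25 (48.0), pool 2 for Gfap (0.521), Gpr37 (33.0) and Id1 (0.688), and pool 3 for Pvrl3 (27.1). In Opn4-Cre/GFP cRGC, pool 1 was high for Vim (1433 CPM), Dkk3 (11401), Prelp (1799), Gfap (126) and Cd9 (205). In adult Opn4-GFP ipRGC, pool 3 was high for Apoe (9.43 CPM), Abca8a (10.2) and Prelp (0.870), pool 6 for Dkk3 (1268), Mt1 (68.9) and Spc25 (7.04), pool 5 for Gfap (4.49), pool 2 for Htra1 (30.9) and pool 4 for Cav1 (56.0). In Opn4-GFP cRGC, pool 4 was high for Abca8a (2056 CPM), Timp3 (965) and Ndnf (659), and pool 2 was low for Gpr37 (31.1). The Opn4-Cre/GFP ipRGC pool 4 library had 1595 genes at 0, and up to 79 were at 0 in the other ipRGC pools of that line.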

How the results depend on the processing

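Of the recomputed counts of called members, 115 stayed within 1.5 times the reported count, and 2 did not: DESeq2 called 3 members in the ipRGC contrast of lines and 1 in the interaction, where limma called 0. Leaving out 1 pool at a time gave 5 to 7 called members at P5, 27 to 28 in adult Opn4-GFP, 29 to 33 in Opn4-Cre/GFP and 0 to 0 in each contrast of lines and the interaction. Of the recomputed single-member values, 752 kept their direction and call, 13 lost a call, 4 gained one and 2 moved (Cst3 to 0.05 and Ptgds to 0.73 in adult Opn4-GFP); none of the called ones changed sign.

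The quasi-likelihood test called 24 members in adult Opn4-GFP and 27 in Opn4-Cre/GFP; over all genes it called 304 and 430, against 597 and 727 by limma, and DESeq2 called 1147 in Opn4-Cre/GFP. Over all genes, leaving out 1 pool gave 419 (ipRGC pool 1) to 892 (cRGC pool 2) in Opn4-Cre/GFP, with 469 without ipRGC pool 2 and 439 without ipRGC pool 3. Without single-run libraries, 22 members (of 201 genes) were called in adult Opn4-GFP, with Cd9, Id2, S100a16, Mt2 and Tsc22d4 not called. DESeq2 called 24 genes, none a member, in the cRGC contrast of lines, where limma called 3. Without TMM the median of all genes was 0.19 in adult Opn4-GFP and 0.17 in Opn4-Cre/GFP. With the pool number as a replicate block, 9 members were called at P5, 27 in adult Opn4-GFP, 31 in Opn4-Cre/GFP (not Htra1 or Tsc22d4) and 0 in the interaction, and the block changed no other call.

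In ipRGC pools many members rest on few reads (11 for Crym and 24 for Gfap over the 6 adult Opn4-GFP pools), so differences between lines there are limited by depth.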
